A study of Drosophila melanogaster with 4 samples.

Results

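The genes chp, prom, eys and Moe encode proteins that shape the rhabdomere, the stack of light-gathering microvilli on each Drosophila photoreceptor. They were chosen by name, with earlier results of these data known. All probe sets that the platform annotation assigns to 1 of these symbols alone were taken. That gave 9 of the 18769 non-control probe sets on the array, 1 for chp, 3 for prom, 4 for eys and 1 for Moe, and 4 of the 11982 genes named by a single symbol. RNA came from eye discs dissected from pupae about 40 h after pupariation and raised at 29 °C. Both groups carried GMR Gal4, a driver that makes the yeast activator Gal4 in the developing retina, and the second group was GMR Gal4 crossed to UAS Yki, which raises Yorkie (Yki), the growth-promoting coactivator that Hippo signalling holds back. Each group had 2 samples described as biological replicates, each hybridised to its own Affymetrix Drosophila Genome 2 array. Whether discs of several animals were pooled is not stated in the labels. The RNA was that of dissected discs with several cell types, so neither group is a pure photoreceptor sample. GMR Gal4 is also active in several retinal cell types.

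Rhabdomeres arise during pupal life, when the apical membrane of each photoreceptor turns inward and folds into microvilli. In flies with separated rhabdomeres, adhesion within a rhabdomere has to be balanced by secretion of matrix into the space between neighbouring ones. Chaoptin, the chp product, is a surface protein with leucine-rich repeats, anchored by a lipid, that binds to itself and holds microvilli together. Prominin, the prom product, is a membrane-spanning protein of membrane protrusions, and it acts together with Eyes shut, the eys product, a secreted proteoglycan related to agrin that fills and opens the space between rhabdomeres. Moesin, the Moe product, is the fly's ERM protein (the family of ezrin, radixin and moesin) and ties cortical actin to the plasma membrane. It acts in many epithelial and other cells, whereas chp is used as a photoreceptor marker.

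The values are linear intensities, and their trimmed mean was nearly the same on every array (500.01). Array medians over the non-control probe sets were 79.4 and 97.1 on control replicates 1 and 2, and 81.1 and 101 on Yki replicates 1 and 2. On each array 22.2% to 28.3% of these probe sets fell under 16, the constant added before taking log2. The overexpressed gene yki measured 1285 and 1261 on the control arrays against 26417 and 26183 on the Yki arrays. Photoreceptor and neuronal markers other than chp were measured on all arrays, among them elav, a pan-neuronal gene, at 1093 and 3323 on the control arrays against 2428 and 1945 on the Yki arrays. In such whole-tissue RNA, more cells of a type and more RNA per cell cannot be told apart.

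chp, prom and eys measured higher in Yki discs than in control discs on every array with their brightest probe set, by 1.77-fold, 1.94-fold and 3.27-fold of the group means, while the control and Yki arrays overlapped for Moe. No probe set of the 4 genes (0 of 9) passed limma at an adjusted p of 0.05, a threshold that 0.016% of all probe sets passed. At an unadjusted limma p under 0.05, 4 of the 9 were higher and 0 lower, where 6.86% of all probe sets were higher and 6.31% lower. That count depended on single arrays: 0 of the 9 passed without Yki replicate 2, 1 without control replicate 1 (eys), and 3 and 5 without control replicate 2 and Yki replicate 1. With array medians subtracted, 3 of the 9 had an unadjusted limma p under 0.05, all higher. Both Yki arrays lay above both control arrays for 6 of the 9 probe sets and below both for 0, where 24.3% and 21.1% of all probe sets did so. A 2-fold difference in all 4 pairs of a Yki and a control array was met by 0 of the 9, and by 1.37% of all probe sets with Yki higher and 1.69% with Yki lower. With 2 arrays in a group, an exact two-sided permutation test cannot give a p below 0.333, so no single value could pass 0.05 by that test.

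**Figure D1:**
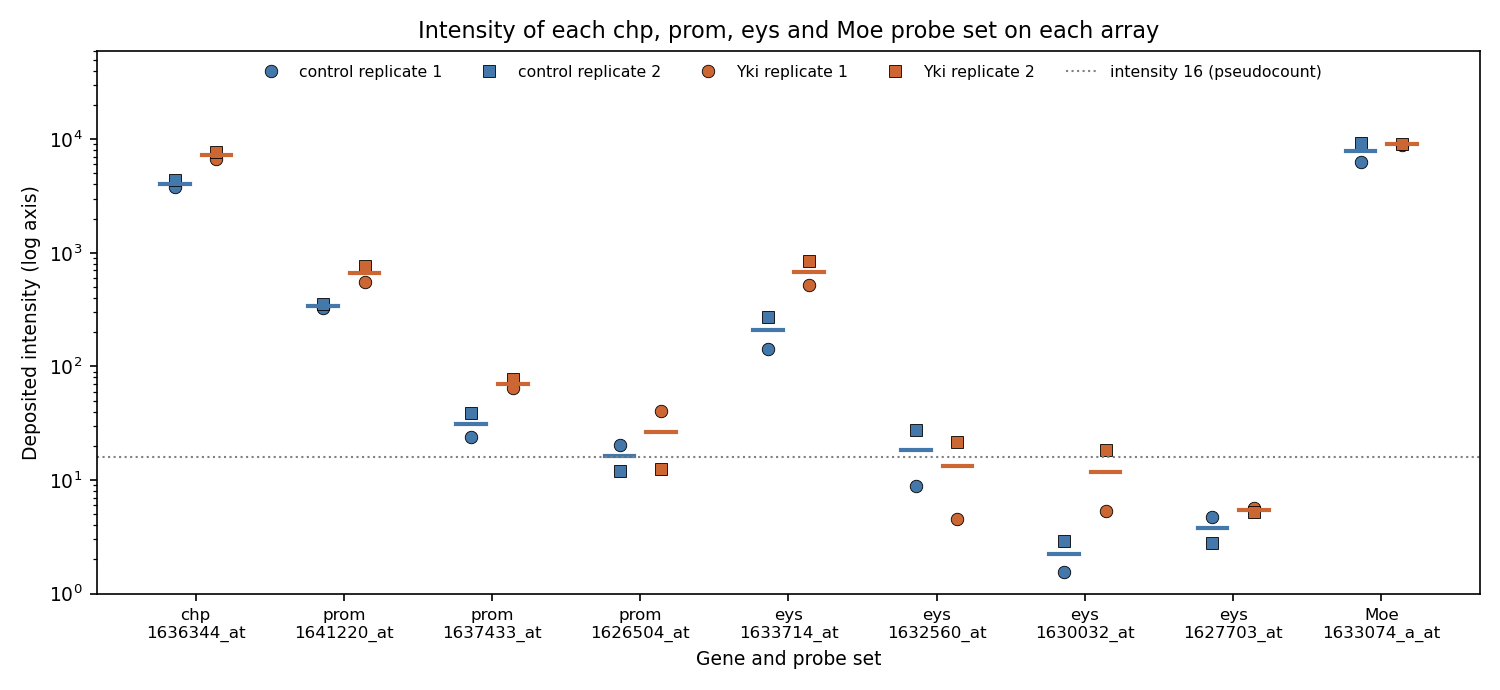
Intensity (log axis) of each probe set of chp, prom, eys and Moe on the 2 control arrays (blue) and the 2 Yki arrays (orange), with circles for replicate 1, squares for replicate 2 and short bars for group means. The orange points lie above the blue ones for chp, for 2 of the 3 prom probe sets and for the brightest eys probe set, and they overlap for Moe. 3 of the 4 eys probe sets lie near or under the dotted line at 16.

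The adhesion gene chp (probe set 1636344_at) measured 3768 and 4364 on the control arrays against 6679 and 7749 on the Yki arrays. Both Yki arrays were above both control arrays, and the replicates within each group lay close together, at 1.16-fold in either group. The group means were 4066 ± 422 and 7214 ± 756 (SD, n = 2 each), and single Yki arrays exceeded single control arrays by between 1.53-fold and 2.06-fold. On the log2(intensity + 16) scale the difference was 0.82 (SE 0.24, 95% interval 0.21 to 1.44), with a limma unadjusted p of 0.0178 and an adjusted p of 0.283. The unadjusted limma p was 0.052 with an added constant of 1 and 0.062 with array medians subtracted. Between like-numbered arrays, the chp difference was 0.82 for replicate 1 and 0.83 for replicate 2 on the log2 scale. Whether like-numbered arrays shared a batch is not known, so here and below a difference within a replicate rests on a pairing that may be arbitrary. Its signal exceeded that of 96.0% to 98.3% of probe sets on each array, far from the dim range in which the added constant of 16 changes a difference.

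The brightest prom probe set, 1641220_at, measured 326 and 353 on the control arrays against 551 and 770 on the Yki arrays. The control arrays were nearly equal, the Yki arrays differed by 1.40-fold, and the groups did not overlap. The means were 339 ± 18.7 and 660 ± 155 (SD, n = 2 each), a log2 difference of 0.91 (SE 0.27, 95% interval 0.23 to 1.59) with a limma unadjusted p of 0.0188 and an adjusted p of 0.286. A second prom probe set, 1637433_at, was dimmer, with 23.8 and 38.9 on the control arrays against 64.4 and 76.8 on the Yki arrays. It differed in the same direction, by 0.89 on the log2 scale (SE 0.27, limma unadjusted p 0.0220, adjusted p 0.298). At this low signal the size depended on the added constant, 1.18 with 1 and 0.50 with 64, against 0.94 and 0.83 for the brightest prom probe set. The third, 1626504_at, read 20.3 and 12.0 on the control arrays against 40.8 and 12.5 on the Yki arrays. Its groups overlapped, its difference of 0.34 on the log2 scale had a 95% interval from -0.69 to 1.36, and only Yki replicate 1 stood above the other arrays. Without Yki replicate 1 the difference of this probe set was -0.16. The 2 brighter prom probe sets thus pointed the same way, and the direction of the faintest depended on 1 array.

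eys, the matrix gene, had the largest difference of the 4 and, by brightest probe sets, also the widest spread between replicates. Its brightest probe set, 1633714_at, measured 143 and 273 on the control arrays against 518 and 843 on the Yki arrays. The lowest Yki array was 1.89-fold above the highest control array, and the highest Yki array 5.91-fold above the lowest control array. Within a group the arrays differed by 1.91-fold in controls and 1.63-fold in Yki discs, so the step between the groups was about as large as the step between the control arrays. The means were 208 ± 92.2 and 680 ± 230 (SD, n = 2 each), a log2 difference of 1.66 (SE 0.41, 95% interval 0.61 to 2.72), with a limma unadjusted p of 0.00981 and an adjusted p of 0.239. A higher log2 difference was measured for 1.25% of all probe sets. The eys difference came to 1.75 and 1.57 within replicates 1 and 2 on the log2 scale, and it stayed between 1.23 and 2.09 with any 1 array left out. With array medians subtracted, the difference was 1.63 and the limma adjusted p 0.00468, in a fit whose variance moderation gave every probe set the same variance and called 874 probe sets in place of 3.

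The other eys probe sets gave signals at the bottom of the intensity range. Probe set 1632560_at read 8.84 and 27.7 on the control arrays against 4.54 and 21.7 on the Yki arrays, where both replicate 2 arrays were above both replicate 1 arrays and the groups overlapped. Probe set 1630032_at read 1.55 and 2.89 on the control arrays against 5.31 and 18.2 on the Yki arrays, and 1627703_at read 4.76 and 2.81 against 5.72 and 5.18. The last of these had no array above 16. Although both Yki arrays were nominally above both control arrays for 1630032_at and 1627703_at, their log2 differences of 0.57 and 0.12 had 95% intervals of -0.22 to 1.36 and -0.45 to 0.69, and at values this small the added constant of 16 largely sets the size of a difference. Nothing in the table says which part of the eys gene each probe set targets, so whether the 4 probe sets read different transcripts was not tested.

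Moe (probe set 1633074_a_at) was bright on every array, with 6307 and 9315 on the control arrays against 8911 and 9136 on the Yki arrays. Control replicate 1 was the low array, and the other control array was above both Yki arrays. The means were 7811 ± 2127 and 9024 ± 159 (SD, n = 2 each), a log2 difference of 0.23 (SE 0.28, 95% interval -0.49 to 0.96, limma unadjusted p 0.442, adjusted p 0.788). Within replicate 1 the difference was 0.50 on the log2 scale and within replicate 2 it was -0.03. Without control replicate 1 it was -0.046, so that array alone gave Moe its positive value. The interval leaves room for a rise of nearly 1 log2 unit or a fall of 0.49, and the data do not show that Moe was unaffected.

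**Figure D2:**
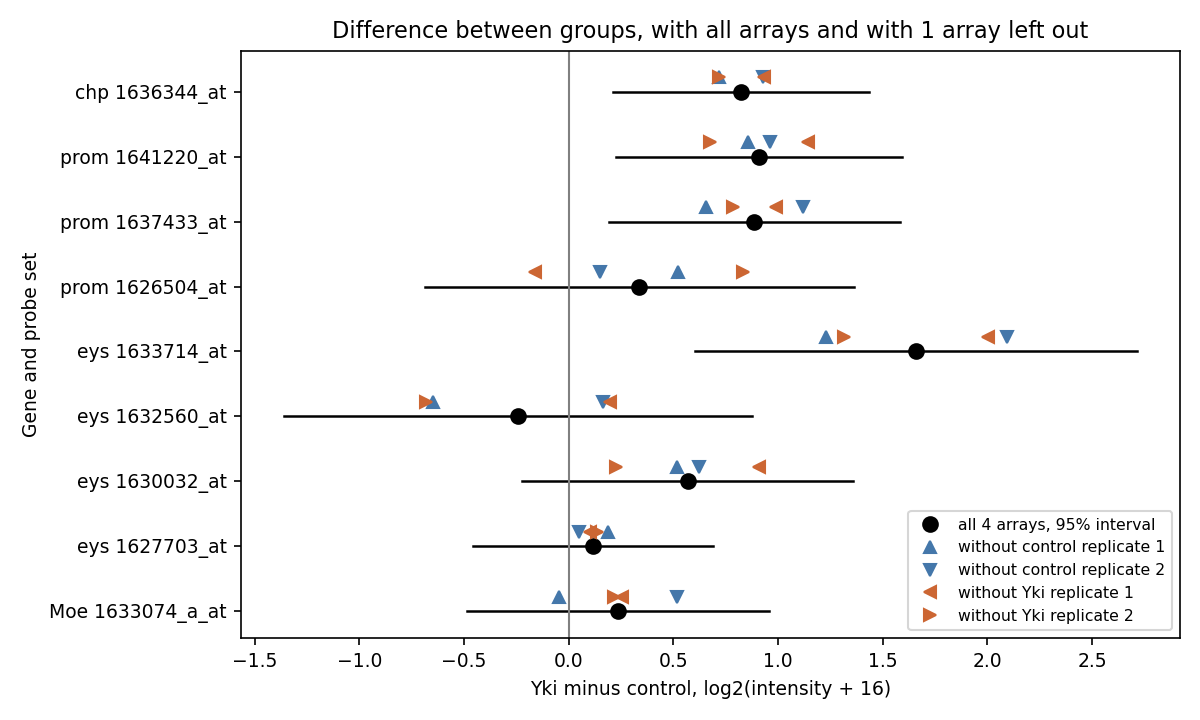
Difference between Yki and control discs on the log2(intensity + 16) scale for each probe set: black points and lines are the limma estimates from all 4 arrays with 95% intervals, and triangles are the estimates with 1 array left out (blue, a control array; orange, a Yki array). The intervals lie above 0 for chp (0.21 to 1.44), 2 prom probe sets and the brightest eys probe set, and the triangles of Moe fall on either side of 0.

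For 4 of the 9 probe sets, those of chp, the 2 brighter prom probe sets and the brightest eys probe set, the step between the groups was larger than the step between replicates in either group. This criterion was chosen after the values were seen, and 7.79% of all probe sets met it with Yki higher and 7.93% with Yki lower. For chp the step between groups was 0.61 on the log2 scale and the larger step within a group 0.21. For eys the corresponding values were 0.88 and 0.87, so that its criterion was met only narrowly.

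The differences of the 4 genes were also set against each other, over 6 pairs of genes with the brightest probe set of each. The log2 difference of eys exceeded that of chp by 0.84, and by 0.27 to 1.40 over the 4 pairs of a Yki and a control array. It exceeded that of Moe by 1.43 (0.95 to 1.90). chp and prom each exceeded Moe, by 0.59 (0.33 to 0.85) and 0.67 (0.23 to 1.12). chp and prom differed from each other by 0.08, with pairs on both sides of 0 (-0.27 to 0.10 for chp minus prom). The exact two-sided permutation p was 0.333, the smallest that 2 against 2 arrays allow, for the 5 pairs other than chp and prom, and 0.667 for chp and prom. No adjustment over the 6 pairs can bring these below 0.05.

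Over the 4 arrays, the genes whose centred log2 values ran closest to each member were taken from 8992 other named genes with a mean intensity of at least 50, by Euclidean distance. With only 4 arrays many genes run alike, so this is a description. For chp the closest were ATP8A (distance 0.07), Drep1 (0.08) and CG12493 (0.08), and 73 genes lay within 0.25. For prom they were ras (0.04), s-cup (0.05) and Cad87A (0.07), with 65 genes within 0.25. prom and chp themselves were 0.21 apart, closer than any other 2 of the 4. For eys they were CG9297 (0.11), CG43078 (0.15) and Tsp42Eg (0.16), with 7 genes within 0.25. For Moe they were Calx (0.02), Prosbeta2R1 (0.03) and sip3 (0.05), with 242 genes within 0.25. The values were centred but not scaled, and these counts fell from Moe to eys as the log2 difference rose. They therefore do not compare how rare the shapes of the 4 patterns are.

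Genes that act beside the 4 were followed as lists, each gene by its brightest probe set. These lists were also chosen with earlier results of these data known. No gene of any list (0) passed limma at an adjusted p of 0.05, which 0.025% of named genes passed. With array medians subtracted, the setting described for eys, 4 light response genes and 1 transport gene passed. At an unadjusted limma p under 0.05, 7.19% of named genes were higher and 8.07% lower, and both Yki arrays lay above both control arrays for 22.5% and below for 25.2%. The median log2 difference over all named genes was -0.01, against 0.87 over chp, prom, eys and Moe. Of the 11982 named genes, 5870 had a log2 difference above 0.

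Of 18 listed proteins that carry the light response and reside in or near the rhabdomere, 15 were measured, and norpA, Ggamma30A and ninaC were not analysed here. All 15 log2 differences were above 0, with a median of 0.92, and 7 had an unadjusted limma p under 0.05, all of them higher, a count of 3 without control replicate 1 or without Yki replicate 2. Both Yki arrays were above both control arrays for 10 of the 15. trp, a light-activated channel gene, had 462 and 551 on the control arrays against 1627 and 2875 on the Yki arrays, a log2 difference of 2.06 (SE 0.35, limma adjusted p 0.149). inaD, the scaffold that gathers light response proteins, had 140 and 120 against 295 and 546 (1.52, SE 0.35), and the channel gene trpl 30.9 and 45.9 against 85.1 and 199 (1.45, SE 0.43). Neither passed (adjusted p 0.213 and 0.286). The median of the list was 0.92 and 0.90 within replicates 1 and 2, and 0.56 without control replicate 1. The log2 differences of chp (0.82) and prom (0.91) lay beside this median, eys (1.66) was above all of the list but trp, and Moe (0.23) lay near its lower end.

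The listed transport and actin genes, which include machinery that builds the rhabdomere, had log2 differences spread around 0. Of 40 listed genes of membrane transport, exocytosis and actin, 23 were measured and 17 were not analysed here, with a median log2 difference of 0.04. At an unadjusted limma p under 0.05, 3 were higher and 0 lower, and groups did not overlap for 8 that were higher and 4 that were lower. With 1 array left out the median ran from -0.048 (without Yki replicate 1) to 0.16 (without Yki replicate 2). f (forked), an actin bundling gene, had 663 and 463 on the control arrays against 1732 and 1231 on the Yki arrays (log2 difference 1.37, SE 0.31, limma adjusted p 0.205). cher, the filamin gene, had 612 and 695 against 1359 and 1458 (1.09, SE 0.23), and Amph, the amphiphysin gene, which shapes the membrane at the base of the rhabdomere, had 952 and 1109 against 1470 and 2322 (0.84, SE 0.31). Their adjusted p-values were 0.188 and 0.358. By contrast the Arp2/3 subunit genes measured, Arpc1, Arpc2, Arpc3A, Arpc4 and Arpc5, had log2 differences between -0.25 and 0.22. The exocyst genes Sec5, Sec8, Sec10, Sec15, Exo70 and Exo84 lay between -0.21 and 0.21. Rip11, which serves Rab11-dependent delivery to the rhabdomere, had 1641 and 1421 against 2319 and 2275 (0.58, unadjusted limma p 0.0504).

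Genes of the apical and stalk membrane, the support on which the rhabdomere sits, were measured for 12 of 13. Their median log2 difference was 0.36, and 0 had an unadjusted limma p under 0.05. crb, which sets the extent of the stalk membrane, had 1419 and 1914 on the control arrays against 2160 and 2183 on the Yki arrays (0.39). The largest differences without overlap were those of beta-Spec, a spectrin gene (0.57, SE 0.30), cno, a junction scaffold gene (0.52, SE 0.33), and the polarity kinase gene aPKC, which was lower (-0.50, SE 0.23), with adjusted p-values of 0.492, 0.572 and 0.438. The median came to 0.48 and 0.13 within replicates 1 and 2, and to 0.11 without control replicate 1.

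Genes that control Moesin or share its FERM fold were measured for 8 of 12 listed, with log2 differences from -0.37 to 0.61. The median was 0.08, from -0.022 without control replicate 1 to 0.21 without control replicate 2, and 0 had an unadjusted limma p under 0.05. Slik, the kinase that phosphorylates Moesin, had 1482 and 1663 on the control arrays against 1541 and 1532 on the Yki arrays (-0.03). flw, a phosphatase subunit gene that opposes it, had 2448 and 2761 against 3170 and 4134 (0.48, SE 0.26, limma adjusted p 0.508). sktl, which makes the membrane lipid that Moesin binds, had 383 and 466 against 312 and 337 (-0.37, SE 0.24, adjusted p 0.581), and cora, a FERM protein gene of septate junctions, 1844 and 2351 against 3151 and 3234 (0.61, SE 0.24, adjusted p 0.385). Mer, the merlin gene and a close relative of Moe, had a log2 difference of -0.12.

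Transcription factors that act upstream of photoreceptor terminal genes had log2 differences below 0 for 6 of the 7 that were measured, of 10 listed, with a median log2 difference of -0.38, and 3 were lower and 0 higher at an unadjusted limma p under 0.05 (1 without control replicate 2 or without Yki replicate 1). sens had 273 and 308 on the control arrays against 107 and 139 on the Yki arrays (-1.15, SE 0.25), salm 493 and 874 against 261 and 273 (-1.25, SE 0.34) and salr 188 and 282 against 99.9 and 115, and their adjusted limma p-values were 0.193, 0.268 and 0.282. gl (glass), a zinc finger factor needed for photoreceptors to differentiate, had 2950 and 3959 against 2456 and 3364 (-0.25), with overlapping groups. Pph13, a homeobox factor needed for rhabdomere growth, had 238 and 215 against 305 and 252 (0.28), and oc (orthodenticle) 188 and 558 against 220 and 275 (-0.38), a spread set by the control arrays. The median came to -0.26 and -0.98 within replicates 1 and 2, to -1.13 without control replicate 1 and to -0.04 without control replicate 2.

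**Figure D3:**
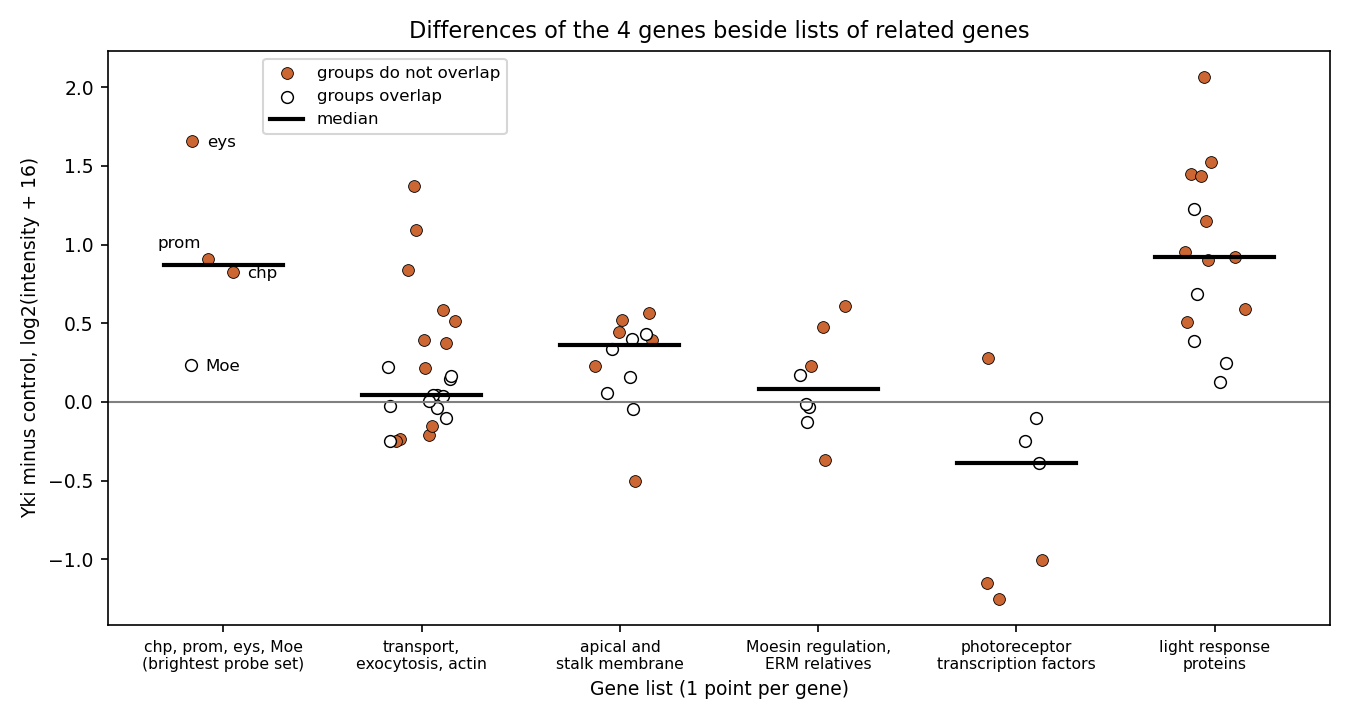
Difference between Yki and control discs on the log2(intensity + 16) scale for chp, prom, eys and Moe and for every measured gene of 5 lists, 1 point per gene by its brightest probe set, filled where the control and Yki arrays do not overlap, with bars at the medians. The medians are 0.92 for the light response proteins and 0.04 and 0.08 for the transport and Moesin regulator lists, and the ranges of the lists overlap.

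Markers of the cell types that an eye disc preparation can hold were summed on each array, leaving out the 4 genes themselves. The summed intensity of 8 photoreceptor and neuronal markers was 4041 and 7181 on the control arrays against 9019 and 13978 on the Yki arrays. The light response genes trp and Arr2 made most of that step: the other 6, with elav the brightest, summed to 1853 and 4863 against 4215 and 4008. inaD and nSyb were also higher on both Yki arrays, nSyb at 168 and 253 against 328 and 457. Groups overlapped for 4 of the 8 markers, elav, Arr1, brp and futsch. Over all named genes, both Yki arrays lay above both control arrays for 22.5% and below for 25.2%. For 7 muscle genes the summed intensity was 7585 and 13122 against 21889 and 36403, the same order of arrays as for chp, prom and eys, and 7 of 7 were higher on both Yki arrays. The 4 pigment cell genes (5850 and 9053 against 14128 and 12467) and the 4 cone cell genes (9312 and 10672 against 18936 and 21938) were also higher in sum, although in the latter Cpr72Ec alone, at 8413 and 9124 against 17742 and 21015, made most of the signal (899 and 1548 against 1194 and 923 without it) and sv was lower. The sums of 5 glial genes were 12391 and 13920 against 15454 and 19760, and without moody, a blood-eye barrier gene, 10114 and 11221 against 8963 and 12110. Those of 7 haemocyte genes (2708 and 3119 against 2625 and 3086) and 3 tracheal genes (21694 and 13870 against 18280 and 23501) overlapped between the groups.

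Fat body genes were bright on all arrays, with sums of 44128 and 31578 on the control arrays against 31158 and 29346 on the Yki arrays over 4 genes, among them the storage protein gene Lsp2 at 11037 to 13782. eys is also used in chordotonal organs. Of 6 other genes of those organs, 5 were under a mean intensity of 50, and nompA, a matrix gene, measured 149 and 219 against 437 and 259, higher on both Yki arrays as eys was (log2 difference 0.84, limma adjusted p 0.407). The sum of the 6 was 231 and 350 on the control arrays against 549 and 353 on the Yki arrays. nompC, iav, nan and btv, which mark the sensory cilium there, had means of 10.7 to 26.5 in control discs and 8.82 to 25.7 in Yki discs. No defining marker of any list was at an intensity of 0, which does not show that each was detected. btv, for example, read 5.04 on Yki replicate 2, under the added constant of 16. The part that the higher muscle, pigment cell and nompA signals play in the differences of chp, prom and eys was not tested.

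**Figure D4:**
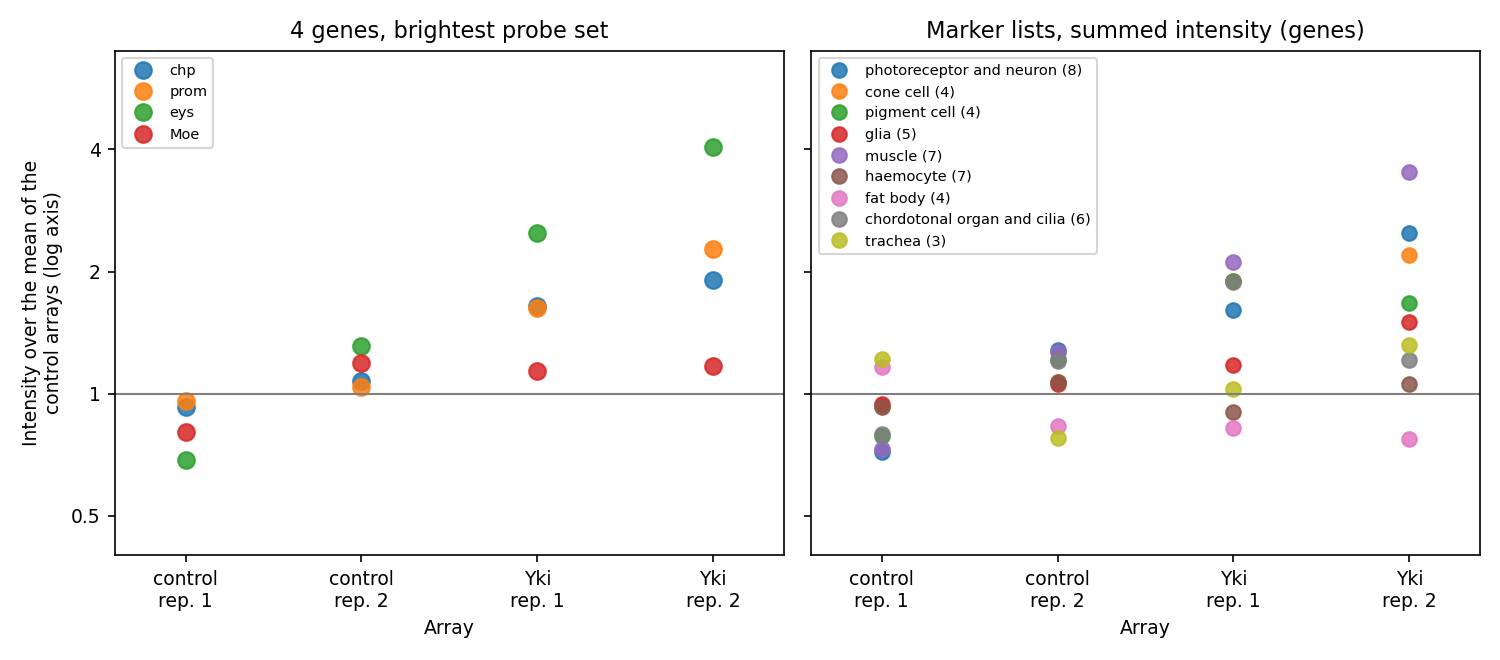
Intensity on each array divided by the mean of the control arrays (log axis), for chp, prom, eys and Moe by their brightest probe set (left) and for the summed intensity of 9 marker lists without those 4 genes (right, number of genes in brackets). On the left all 4 genes are above 1 on both Yki arrays. On the right 7 of the 9 sums are, all but those of haemocyte and fat body genes, and the fat body sum is below 1 on both.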

How the data were processed

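Total RNA was labelled with biotin and hybridised to Affymetrix arrays, 1 sample each, per the labels' protocols. Deposited values are linear intensities of 18952 probe sets per array. The authors used Affymetrix Expression Console, per the submitters' processing notes; how probes were summarised into probe sets is not stated there. With 2% of values trimmed at each end, every array averaged 500.01. After 183 control probe sets were left out, limma 3.58.1 in R 4.3.3 (lmFit, eBayes, group as the only term) was run on log2(intensity + 16) over 18769 probe sets, with Benjamini-Hochberg adjustment over all of them. The residual degrees of freedom were 2, with 3.03 added by moderation. The added 16 understates the change of dim probe sets. Of the probe sets, 13647 had 1 gene symbol, 402 several and 4720 are unnamed here. Symbols were checked against a RefSeq gene table (Release 6 plus ISO1 MT), which changed none. No coordinates are given, because the array table names no genome build. The pipeline was run on simulated data with known shifts, and the check was that the mean estimates recovered them. That check does not bear on the power of 2 against 2 arrays. The limma p-values judge a difference between groups against the spread within groups on these 4 arrays, moderated over all probe sets.

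The members and gene lists were chosen with earlier results of these data known. Besides the members and yki, the rule for named genes took up to 3 genes per list by size of difference, among those without overlap and with a mean of at least 50 in a group, and the 3 genes nearest to each member. Marker genes were named from their lists. elav, Lsp2, crb, Rip11, Slik, Mer, gl, Pph13, oc and the Arp2/3 and exocyst subunit genes were named for their role, after their values were seen. Alternatives were other added constants, array scalings, a filter on dim probe sets, other moderation, the replicate number as a block, and each array left out. Marker sums without trp and Arr2, moody or Cpr72Ec were added after the data were seen.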

Additional observations from a re-analysis of the deposited data

How the results depend on the processing

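Every probe set of chp, eys, prom and Moe kept its side of the adjusted p of 0.05 under all alternatives that could be run for it (10 or 11), except the brightest eys probe set, which passed with array medians subtracted (log2 difference 1.63, limma adjusted p 0.00468). The direction changed for Moe without control replicate 1 (-0.046), for prom 1626504_at without Yki replicate 1 (-0.16) and for eys 1632560_at without control replicate 2 (0.16) or Yki replicate 1 (0.20). The probe sets under a mean intensity of 50 could not be run with the filter on dim probe sets. With any 1 array left out, the log2 difference ran from 0.72 to 0.93 for chp, 0.67 to 1.15 for prom 1641220_at, 0.65 to 1.12 for prom 1637433_at, -0.16 to 0.83 for prom 1626504_at, 1.23 to 2.09 for eys 1633714_at, -0.68 to 0.20 for eys 1632560_at and -0.046 to 0.52 for Moe. A lone array left in a group is then assumed to vary like the other group. Over all probe sets, limma called 3 at an adjusted p of 0.05 (1 higher, 2 lower), 0 with an added constant of 1 (2192 at an unadjusted p under 0.05), 874 with array medians subtracted, 12 with quantile normalization, 42 of 10873 with the filter, 20 with trended and robust moderation, and 0 with any array left out (1486 to 2635 at an unadjusted p under 0.05). Whether like-numbered arrays shared a batch is not known. The deviations from the group means of like-numbered arrays had a correlation of 0.04 over all probe sets. Array medians were nevertheless higher for replicate 2 in both groups (97.1 against 79.4 in controls, 101 against 81.1 in Yki discs), so the correlation does not settle it. With the replicate block 27 probe sets were called, and the adjusted p became 0.117 for eys 1633714_at, 0.306 for chp and 0.286 for prom 1641220_at, at the same log2 differences. Signal near background limits what 4 of the 9 probe sets can show.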
